A study of Mus musculus with 8 samples.

Results

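Expression of 10 genes of the Eph receptor and ephrin family was examined in dissected hearts of mouse embryos, in tissue of the right ventricle and outflow tract (OFT/RV). These genes were the receptors Epha3, Epha4, Epha7, Ephb2, Ephb3 and Ephb4 and the ligands Efna1, Efna5, Efnb1 and Efnb2, out of 20701 gene symbols measured and 22 Eph and ephrin genes in the table. Epha4 was chosen by its measured difference between the groups in these same libraries, and the other 9 genes were set beside it as relatives and possible ligands with results of these libraries known. The differences between the groups below are therefore descriptions of these embryos, and none of them is independent evidence. All 10 genes passed the filter on low counts.

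Libraries of polyadenylated RNA came from single C57BL/6 embryos at E10.5, with 4 wild-type controls (CTRL) and 4 embryos homozygous for a hypomorphic Isl1 allele (Isl1-f;neo/f;neo, Isl1_hypo), each a separate embryo. Isl1, a LIM-homeodomain transcription factor of second heart field progenitors, is reduced but not absent in the hypomorph. The allele is not limited to a cell type or time, so earlier and later effects of Isl1 cannot be told apart at this stage. Whole OFT/RV was sequenced, and in such bulk samples fewer cells of a type and less RNA per cell cannot be told apart. No embryo was treated with any agent, and the libraries carried no label for sex or litter.

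Isl1 itself had 29.6, 61.5, 46.2 and 51.3 CPM (depth-scaled counts, the count of a gene over the TMM-scaled library size) in CTRL 1 to 4 and 12.7, 6.86, 7.71 and 11.4 CPM in Isl1_hypo 1 to 4. It fell by 2.29 on the log2 scale (SE 0.256, adjusted p = 0.00770), and the groups did not overlap. Total counts ranged from 29748458 to 46678973 in CTRL and from 18422245 to 33050298 in Isl1_hypo, and the ranges overlapped. All 10 heart muscle markers were detected, as in the labelled tissue, with a summed level of 43416 to 53158 CPM in CTRL and 46596 to 56621 CPM in Isl1_hypo. Of these markers 2, Myh7 and Myh6, were lower at an unadjusted p under 0.05 (log2 fold changes -0.49 and -0.31) and none at an adjusted p under 0.05. The library Isl1_hypo 3 stood apart on the first principal component (72.0, against -17.7 to 3.97 for the others), and an Eph or ephrin value is also given without it where its sign changed or a log2 fold change over 0.1 in size moved by over 1.5 times. Globin transcripts took 0.212% to 1.19% of counts in CTRL and 1.18% to 2.44% in Isl1_hypo. Y-linked transcripts were at 204 to 277 CPM in CTRL 3 and Isl1_hypo 1, 3 and 4 and at 0.0214 to 0.337 CPM in the other 4 libraries, so the groups were unequal in that respect.

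Eph proteins are receptor tyrosine kinases that are activated by ephrins on the surface of neighbouring cells, so that signalling needs contact and can run into both cells. A-class ephrins are held in the membrane by a lipid anchor and bind mainly EphA receptors, whereas B-class ephrins span the membrane and bind mainly EphB receptors. EphA4 is unusual in that it binds ligands of both classes. The family is known for repulsion and boundary formation between cell populations, and in the cardiovascular system for the separation of arterial from venous endothelium by ephrin-B2 and EphB4, and for roles in valve and septum formation.

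Epha4 lies at chr1:77363760-77511663 on the minus strand of mm9, the genome build of the data, and no other annotated gene overlaps its span. The window from 250 bases before to 50 bases after its RefSeq start (chr1:77511614-77511913 in mm9, matched to that genome from the RefSeq sequence) is shown with that of Epha7 because Epha4 is the A-class receptor that differed most between the groups and Epha7 its most abundant companion of that class. Epha7 lies at chr4:28740281-28894649 on the plus strand, and its window at chr4:28740031-28740330. Capitals mark CCAAT on either strand and TAATTG, a homeodomain-type hexamer searched on both strands together with TAATGG.
Epha4: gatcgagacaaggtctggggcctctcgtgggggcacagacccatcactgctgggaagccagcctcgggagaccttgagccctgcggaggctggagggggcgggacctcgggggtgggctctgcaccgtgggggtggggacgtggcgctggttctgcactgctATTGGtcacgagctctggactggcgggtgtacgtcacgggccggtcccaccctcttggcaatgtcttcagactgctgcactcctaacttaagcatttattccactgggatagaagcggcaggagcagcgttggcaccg
Epha7: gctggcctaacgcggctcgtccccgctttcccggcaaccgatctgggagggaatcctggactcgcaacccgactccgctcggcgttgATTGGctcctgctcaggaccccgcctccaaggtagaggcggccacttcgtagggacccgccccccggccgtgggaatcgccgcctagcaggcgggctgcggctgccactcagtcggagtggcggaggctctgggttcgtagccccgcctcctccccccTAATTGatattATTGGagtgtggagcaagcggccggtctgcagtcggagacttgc

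The Epha4 window held 1 CCAAT match on the minus strand and neither hexamer. In the Epha7 window shown, TAATTG begins 5 bases before the start, and in the window of its other RefSeq start it begins 19 bases before. Epha7 alone of the 10 genes had a match to either hexamer. Over the windows of 27025 mouse genes, 14.9% held at least 1 of these hexamers and 37.9% held CCAAT, which 6 of the 10 genes also held. The windows of all 10 genes held more CpG dinucleotides than the median window, 14 to 38 against a median of 7 and an upper quartile of 21. Their GC contents were 59.7% to 73.3%. Epha4 had 17 CpG and Efna5 38, the fewest being 14 in Ephb4 and Efnb1. A match is a description of the letters in the window, and no binding was measured in these libraries.

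Epha4 was higher in Isl1_hypo than in CTRL, whereas no other gene among the 10 passed an adjusted p of 0.05. Over all 13769 genes tested, 37 genes (0.269%) passed that threshold, 20 of them higher and 17 lower in Isl1_hypo, and among the 10 genes 1 did. An unadjusted p under 0.05 was reached by 11.9% of all genes tested and by 2 of the 10, Epha4 and Efna1. The same genes were the 2 of the 10 whose groups did not overlap, against 8.50% of all genes tested. Log2 fold changes were positive for 5 genes and negative for 5, and their median was 0.01, as it was over all genes tested. The median size of the log2 fold change was 0.124 in these genes and 0.184 over all genes tested.

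**Figure D1:**
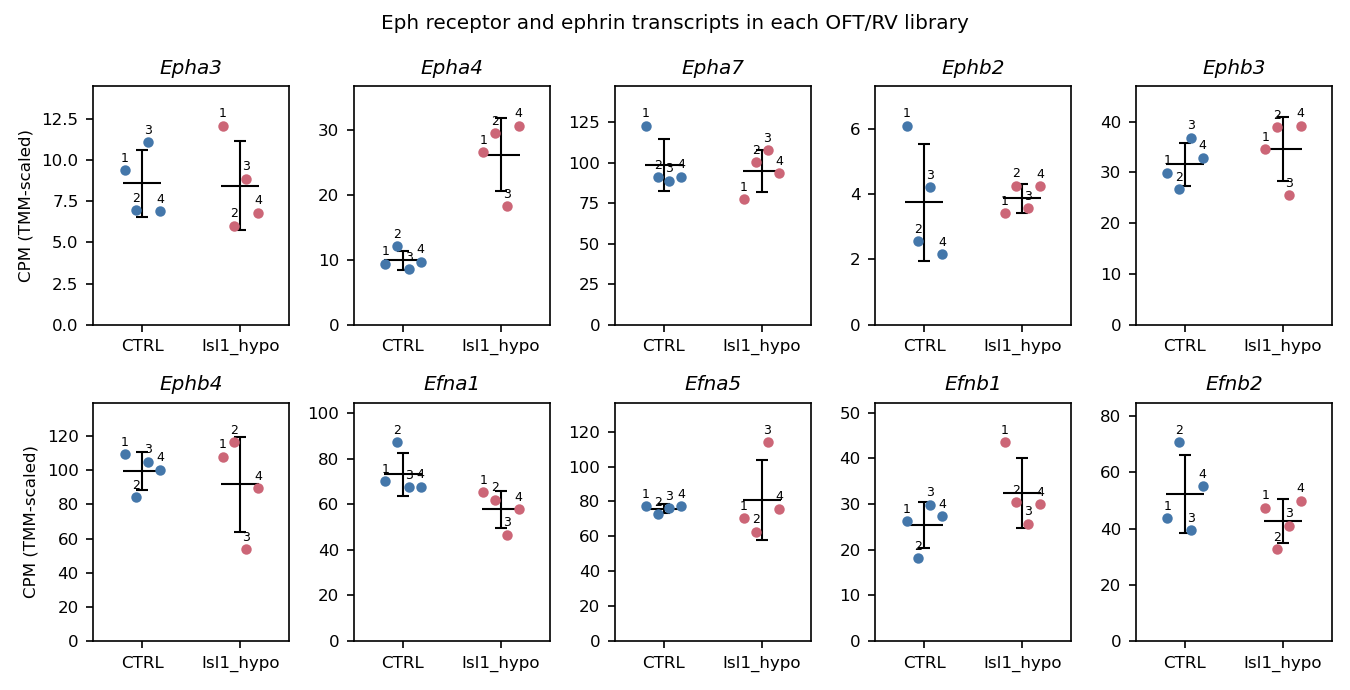
Level of each gene in CPM (vertical axis, from 0, a separate scale for each gene) in the 4 CTRL and 4 Isl1_hypo libraries; points are embryos numbered by replicate, and bars give mean and SD. Epha4 (8.59 to 12.1 against 18.2 to 30.7 CPM) and Efna1 (67.6 to 87.2 against 46.6 to 65.2 CPM) show no overlap between the groups, and the other 8 genes overlap.

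Among the A-class receptors, Epha4 had 9.41, 12.1, 8.59 and 9.73 CPM in CTRL 1 to 4 and 26.6, 29.5, 18.2 and 30.7 CPM in Isl1_hypo 1 to 4. Every mutant embryo lay above every control, and Isl1_hypo 3 was the lowest of the mutants. The means were 9.94 ± 1.49 CPM in CTRL and 26.2 ± 5.61 CPM in Isl1_hypo (SD, n = 4 each), so that the mutant mean was 264% of the control mean. The log2 fold change was 1.40 (SE 0.192, 95% interval 0.98 to 1.82, adjusted p = 0.0172), which ranked 317 by size and 10 by p among the 13769 genes. These values rest on 294 to 490 counts in CTRL and 489 to 887 counts in Isl1_hypo.

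The direction of the Epha4 difference was the same in all 20 alternative analyses, with log2 fold changes of 1.31 to 1.60, but its adjusted p moved across the threshold. It was 0.0728 without CTRL 1, 0.0516 without CTRL 2, 0.0948 without CTRL 3, 0.0705 without Isl1_hypo 2 and 0.0603 without Isl1_hypo 4, and it was 0.00236 without Isl1_hypo 3. A fit that held the globin level gave a log2 difference of 1.54 and an adjusted p of 0.136, and a fit that held the Y-linked level gave 1.54 and 0.0659. Globin and Y-linked transcripts were unequally spread over the groups, with overlap, as given above. Their part in the Epha4 difference was not tested beyond these fits.

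Epha7, a receptor known from axon guidance and the patterning of the nervous system, had 123, 91.1, 88.9 and 91.3 CPM in CTRL and 77.3, 100.5, 108 and 93.6 CPM in Isl1_hypo. CTRL 1 was the highest and Isl1_hypo 1 the lowest of the 8 embryos, and the groups overlapped. The log2 fold change was -0.05 (SE 0.139, 95% interval -0.36 to 0.25, adjusted p = 0.908). A shorter Epha7 transcript of 3260 bases had 40.3% ± 3.78 of the counts of the full-length transcript in CTRL and 39.6% ± 4.34 in Isl1_hypo (SD, n = 4 each). That share did not differ beyond the spread between embryos, and counts of transcripts that share exons are not separate measurements.

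Epha3, at chr16:63543364-63863984, encodes a receptor whose loss in mice is known to impair the atrioventricular endocardial cushions. It had 9.41, 6.96, 11.1 and 6.90 CPM in CTRL and 12.1, 6.03, 8.88 and 6.82 CPM in Isl1_hypo. Both groups spanned nearly the same range, and the log2 fold change was -0.03 (SE 0.260, 95% interval -0.60 to 0.54, adjusted p = 0.977).

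None of the B-class receptors passed the test. Ephb4, the venous receptor for ephrin-B2 (chr5:137791337-137819897), had 110, 84.0, 105 and 100.3 CPM in CTRL and 108, 116, 53.7 and 89.5 CPM in Isl1_hypo. Isl1_hypo 3 was well below the other 7 embryos. The log2 fold change was -0.12 (SE 0.202, adjusted p = 0.850) with this library and 0.07 without it. Ephb4 shares 33 exon bases with Zan on the opposite strand, and counting was not strand-specific.

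Ephb3, at chr16:21204828-21223378, encodes a receptor that acts with EphB2 in tissue boundaries and vessel formation. Its level was 29.9, 26.7, 36.8 and 32.9 CPM in CTRL and 34.6, 39.0, 25.6 and 39.2 CPM in Isl1_hypo. Of the mutants, 3 were above the CTRL mean and Isl1_hypo 3 was the lowest of all embryos, and the log2 fold change was 0.13 (SE 0.163, adjusted p = 0.784). With 1 library left out it was between 0.06 (without CTRL 2, Isl1_hypo 2 or Isl1_hypo 4) and 0.25 (without Isl1_hypo 3), and it was 0.21 without CTRL 3.

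Ephb2, at chr4:136203454-136391903, was the scarcest of the 10 genes and encodes a receptor for B-class ephrins. It had 6.11, 2.56, 4.22 and 2.16 CPM in CTRL and 3.42, 4.27, 3.57 and 4.26 CPM in Isl1_hypo. The coefficient of variation was 47.9% in CTRL and 11.5% in Isl1_hypo, and all mutants lay inside the control range. Its log2 fold change, 0.05 (SE 0.350, 95% interval -0.72 to 0.82, adjusted p = 0.968), was the least precise of the 10, with 63 to 191 counts per library.

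Among the 4 ligands of the 10 genes, Efna1 alone had groups that did not overlap. It encodes ephrin-A1, an endothelial ligand of EphA2 and EphA4 (chr3:89075655-89085064). Its level was 70.2, 87.2, 67.6 and 67.7 CPM in CTRL and 65.2, 61.9, 46.6 and 57.7 CPM in Isl1_hypo. Every mutant lay below every control, by as little as the gap from 65.2 to 67.6 CPM, and means were 73.2 ± 9.42 and 57.9 ± 8.11 CPM (SD, n = 4 each). The log2 fold change was -0.34 (SE 0.136, 95% interval -0.64 to -0.04), which did not pass adjustment over all genes (adjusted p = 0.348). It was -0.24 without CTRL 2, the highest control, and -0.18 in the fit that held the globin level.

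Beside Efna1, the summed level of 8 endothelial markers ran from 688 to 802 CPM in CTRL and from 522 to 678 CPM in Isl1_hypo, without overlap, and 7 of these markers had negative log2 fold changes, of which 3 had an unadjusted p under 0.05 and none an adjusted p under 0.05. No marker of that list was at 0 in every library. The 7 arterial markers were at 552 to 640 CPM in CTRL and 559 to 593 CPM in Isl1_hypo, and the 4 venous markers at 81.7 to 108 and 76.2 to 94.3 CPM. None of the arterial markers had an unadjusted p under 0.05, while 2 venous markers did, in opposite directions and without overlap, Nr2f2 at 0.97 and Nrp2 at -0.66 on the log2 scale, and neither had an adjusted p under 0.05. The part of endothelial content in the Efna1, Efnb2 and Ephb4 values was not tested.

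Efna5, at chr17:62953533-63230666, encodes ephrin-A5, another lipid-anchored ligand of EphA receptors. It had 77.5, 72.5, 76.3 and 77.4 CPM in CTRL and 70.4, 62.7, 114 and 75.9 CPM in Isl1_hypo. Controls varied by 3.08% (coefficient of variation) and mutants by 28.2%, with Isl1_hypo 3 the highest of all embryos. The log2 fold change was 0.09 (SE 0.165, adjusted p = 0.864) with this library and -0.12 without it.

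The B-class ligands had opposite signs, and neither passed the test. Efnb1, an X-linked gene (chrX:96331469-96344330) whose product guides neural crest and skeletal patterning, had 26.2, 18.2, 29.8 and 27.3 CPM in CTRL and 43.6, 30.5, 25.7 and 29.96 CPM in Isl1_hypo. All 4 mutants were above the CTRL mean of 25.4 CPM, but the groups overlapped. Its log2 fold change was 0.35 (SE 0.195, 95% interval -0.08 to 0.78, adjusted p = 0.504), and it was 0.18 without Isl1_hypo 1, the highest embryo, 0.22 without CTRL 2, the lowest, and 0.26 in the fit that held the Y-linked level.

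Efnb2, at chr8:8617434-8661239, encodes ephrin-B2, the arterial ligand of EphB4, which EphA4 also binds. Its level was 43.8, 70.8, 39.5 and 55.0 CPM in CTRL and 47.5, 32.6, 41.1 and 50.02 CPM in Isl1_hypo. No mutant was above the CTRL mean of 52.3 CPM, and the groups overlapped. The log2 fold change was -0.29 (SE 0.196, 95% interval -0.72 to 0.14, adjusted p = 0.579), and it was -0.11 without CTRL 2 and -0.18 without Isl1_hypo 2.

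**Figure D2:**
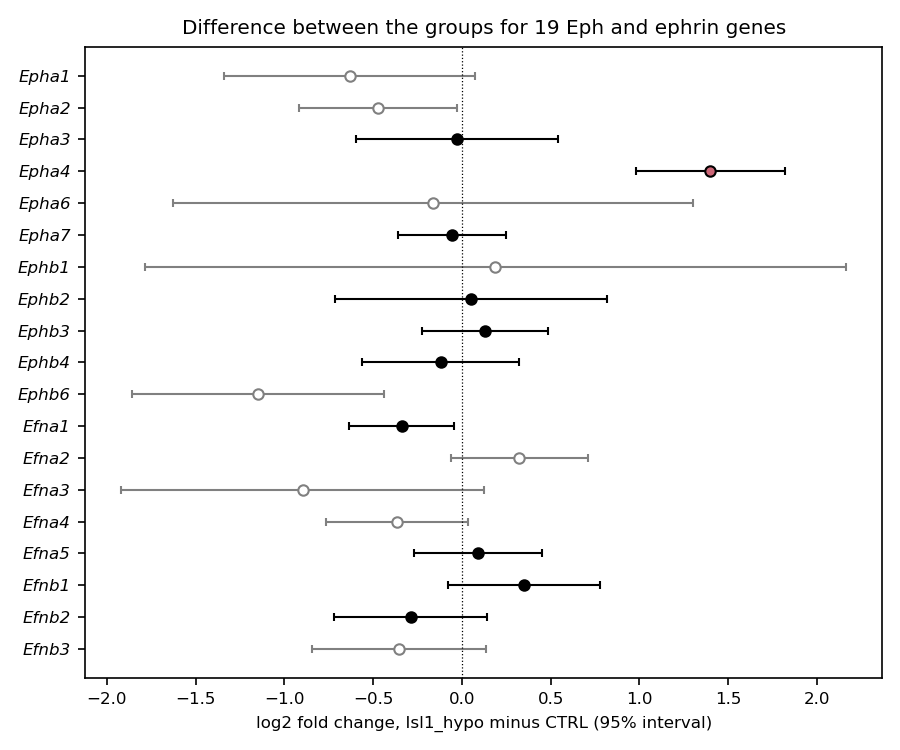
Log2 fold change (horizontal axis, Isl1_hypo minus CTRL) with 95% intervals for the 19 Eph and ephrin genes that passed the filter; filled points are the 10 genes described, open points the other family genes, and red marks an adjusted p under 0.05. Epha4 at 1.40 is the one red point, and the lowest value is that of Ephb6 at -1.15.

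The scale per transcript length orders the genes by level. In CTRL the mean RPKM (reads scaled by depth and by transcript length, as deposited) was 30.4 for Efna1, 14.1 for Ephb4, 9.004 for Epha7, 8.87 for Efna5, 7.43 for Efnb2, 4.69 for Ephb3, 4.64 for Efnb1, 1.33 for Epha3, 0.967 for Epha4 and 0.212 for Ephb2. Efna1 was thus the most abundant and Ephb2 the scarcest of the 10 genes in the control OFT/RV. The RPKM ranges over the 4 controls overlapped between the neighbours Epha7 and Efna5, Efna5 and Efnb2, Ephb3 and Efnb1, and Epha3 and Epha4, and not between the others. In Isl1_hypo, Epha4 had a mean of 2.51 RPKM and Epha3 1.29 RPKM, so Epha4 moved from place 9 to place 8, although the ranges of these 2 genes over the mutants still overlapped (1.70 to 2.94 and 0.923 to 1.87 RPKM). Efna5 and Epha7, and Efnb1 and Ephb3, also changed places, and each of these pairs overlapped in both groups.

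**Figure D3:**
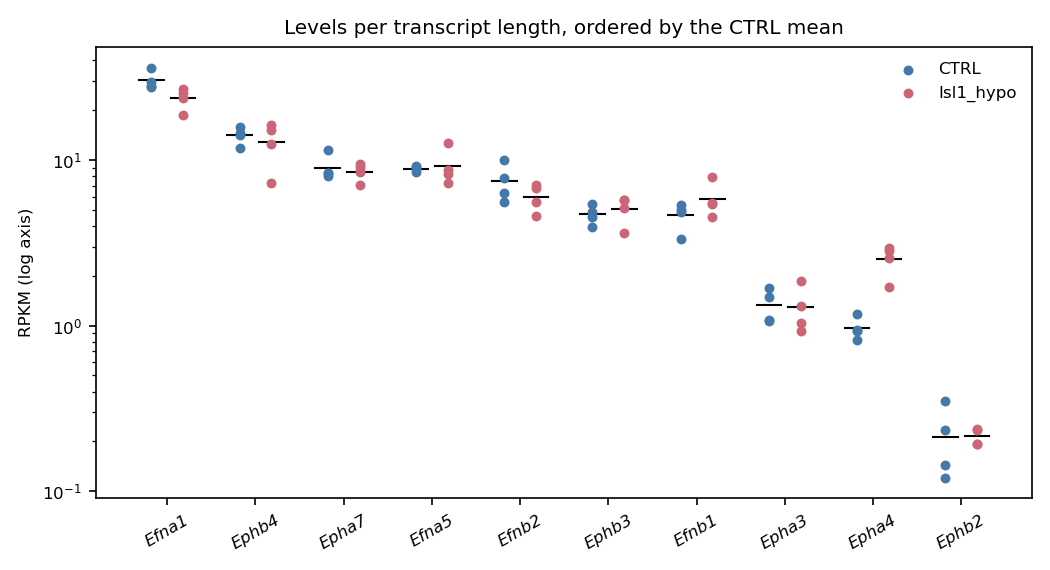
RPKM on a log axis for the 10 genes, ordered by their CTRL mean; points are embryos and lines are group means. Epha4 shifts from 0.967 to 2.51 RPKM between the groups, which leaves it below Efnb1 at 4.64 and 5.84 RPKM.

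Although Epha4 was higher, the summed RPKM of the 9 EphA receptors was 16.8 ± 1.72 in CTRL and 16.1 ± 1.201 in Isl1_hypo (SD, n = 4 each). Epha4 made up 4.82%, 7.54%, 5.01% and 5.89% of that sum in CTRL 1 to 4 and 15.97%, 16.5%, 11.8% and 17.6% in Isl1_hypo 1 to 4. Its share was thus higher in every mutant, while Epha7 held 53.3% ± 4.31 in CTRL and 53.0% ± 9.07 in Isl1_hypo. The ratio of Epha4 to Epha7 in RPKM was 0.0816 to 0.141 in CTRL and 0.180 to 0.366 in Isl1_hypo. Against its ligand gene Efnb2, the Epha4 ratio was 0.116 to 0.149 in CTRL and 0.304 to 0.618 in Isl1_hypo. Both ratios contain the Epha4 values that led to its choice.

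Summed RPKM of the 5 EphB receptors was 20.6 ± 2.26 in CTRL and 18.8 ± 5.25 in Isl1_hypo. For the 5 A-class ligands it was 49.1 ± 4.98 and 42.1 ± 2.56, and for the 3 B-class ligands 48.9 ± 2.78 and 40.3 ± 11.1 (SD, n = 4 each). Isl1_hypo 3 was the lowest embryo in the EphA, EphB, ephrin-A and ephrin-B sums, at 14.4, 11.4, 39.0 and 24.2 RPKM in that order. Without this library the mutant means (n = 3) were 21.3 ± 2.09 RPKM for EphB receptors, which is above the CTRL mean, 43.1 ± 1.84 for A-class ligands and 45.6 ± 3.59 for B-class ligands. It was the lowest of the 4 mutants for 13 of the 19 family genes tested, that is 68.4%, against 37.2% of all genes tested.

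Of the 12 other Eph and ephrin genes, 9 passed the filter, 2 with positive and 7 with negative log2 fold changes, and none passed an adjusted p of 0.05 in edgeR. An unadjusted p under 0.05 was reached by 2 of these 9, Ephb6 and Epha2, against 11.9% of all genes tested, and 3 of the 9 had groups without overlap, against 8.50% of all genes tested. DESeq2 called 1, and the median log2 fold change was -0.37. Ephb6 encodes a receptor without kinase activity. It had 10.1, 8.41, 9.29 and 8.29 CPM in CTRL and 5.87, 5.40, 1.86 and 3.25 CPM in Isl1_hypo, without overlap. Its log2 fold change was -1.15 (SE 0.324, adjusted p = 0.205), and DESeq2 gave it an adjusted p of 0.0359. It was -0.91 without Isl1_hypo 3, the lowest embryo.

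Epha2, a receptor for ephrin-A1, had 18.8, 21.1, 25.0 and 18.5 CPM in CTRL and 17.7, 16.1, 9.55 and 16.8 CPM in Isl1_hypo. Its groups did not overlap, and the log2 fold change was -0.47 (SE 0.203, adjusted p = 0.391), or -0.30 without Isl1_hypo 3. Efna3, an A-class ligand with 17 to 82 counts per library, was the other gene of these 9 without overlap, at -0.90 (SE 0.467, adjusted p = 0.484). Efnb3, a B-class ligand, had the highest mean of the whole family per length, 36.8 RPKM in CTRL and 28.5 RPKM in Isl1_hypo, and its log2 fold change was -0.35 (SE 0.224, adjusted p = 0.558). That value was -0.13 without Isl1_hypo 3, which had 77.0 CPM against 154 to 197 CPM in the other mutants, and it was -0.20 in the fit that held the globin level and -0.22 in the fit that held the Y-linked level.

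The other tested genes had log2 fold changes of -0.63 for Epha1, -0.37 for Efna4, 0.32 for Efna2, -0.16 for Epha6 and 0.19 for Ephb1, with adjusted p from 0.466 to 0.953. Without Isl1_hypo 3 the value was -0.37 for Epha1, 0.21 for Epha6 and 0.61 for Ephb1, and without CTRL 3 it was 0.21 for Efna2. For Efna4 it was -0.16 in the fit that held the globin level and -0.22 in the fit that held the Y-linked level. Epha5, Epha8 and Epha10 did not pass the filter. Epha5 had 7, 0, 33 and 42 counts in CTRL and 2, 0, 0 and 0 in Isl1_hypo, Epha8 reached at most 19 counts, and Epha10 had counts in CTRL 2 alone. These are too few for a statement on a difference.

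Genes that act with Eph receptors or ephrins inside the cell were examined as a list of 39 genes, of which 38 were tested. Log2 fold changes were positive for 21 and negative for 17, with a median of 0.04, and none passed an adjusted p of 0.05 in edgeR, while DESeq2 called 2. An unadjusted p under 0.05 was reached by 3 of the 38, with 2 positive and 1 negative log2 fold changes, beside 11.9% of all genes tested.

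Vav3, a guanine nucleotide exchange factor that binds activated Eph receptors, had 8.45, 7.41, 7.65 and 7.20 CPM in CTRL and 10.48, 12.1, 13.6 and 10.9 CPM in Isl1_hypo (log2 fold change 0.62, SE 0.167, adjusted p = 0.193). Ptpro, a tyrosine phosphatase known to dephosphorylate Eph receptors, had 2.11, 1.21, 0.993 and 2.16 CPM in CTRL and 6.25, 6.03, 2.53 and 3.15 CPM in Isl1_hypo (1.47, SE 0.420, adjusted p = 0.210). Pick1, a PDZ protein that binds Eph receptors and ephrin-B, had 30.04, 23.7, 26.8 and 25.7 CPM in CTRL and 23.4, 17.4, 19.3 and 18.1 CPM in Isl1_hypo (-0.44, SE 0.144, adjusted p = 0.283). In each of these 3 genes, named for their unadjusted p, the groups did not overlap, and no other gene of the 38 tested showed this, against 8.50% of all genes tested.

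Across the 8 embryos, the level of Epha4 was most like that of Nppa among 10743 genes with a mean of at least 5 CPM. Likeness was taken as the mean absolute difference between genes in log2 CPM, after centring each on its own mean, and was 0.127 for Nppa, which encodes atrial natriuretic peptide. Further genes near it were Myoz2, a sarcomere Z-disc protein, at 0.236, Otub2, a deubiquitinase, at 0.271 and Ntf3, the growth factor neurotrophin-3, at 0.272. The log2 fold changes of these 4 genes were 1.13, 1.18, 0.90 and 1.22 in the same order, and because Epha4 differs between the groups, a gene near it by this measure differs too.

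Nppa had 366, 359, 244 and 282 CPM in CTRL and 745, 705, 496 and 799 CPM in Isl1_hypo. As in Epha4, CTRL 3 was the lowest control and Isl1_hypo 3 the lowest mutant. Within the family, the nearest genes were Efna2, at place 260 of the 10743 genes, and Efnb1, at place 665.

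**Figure D4:**
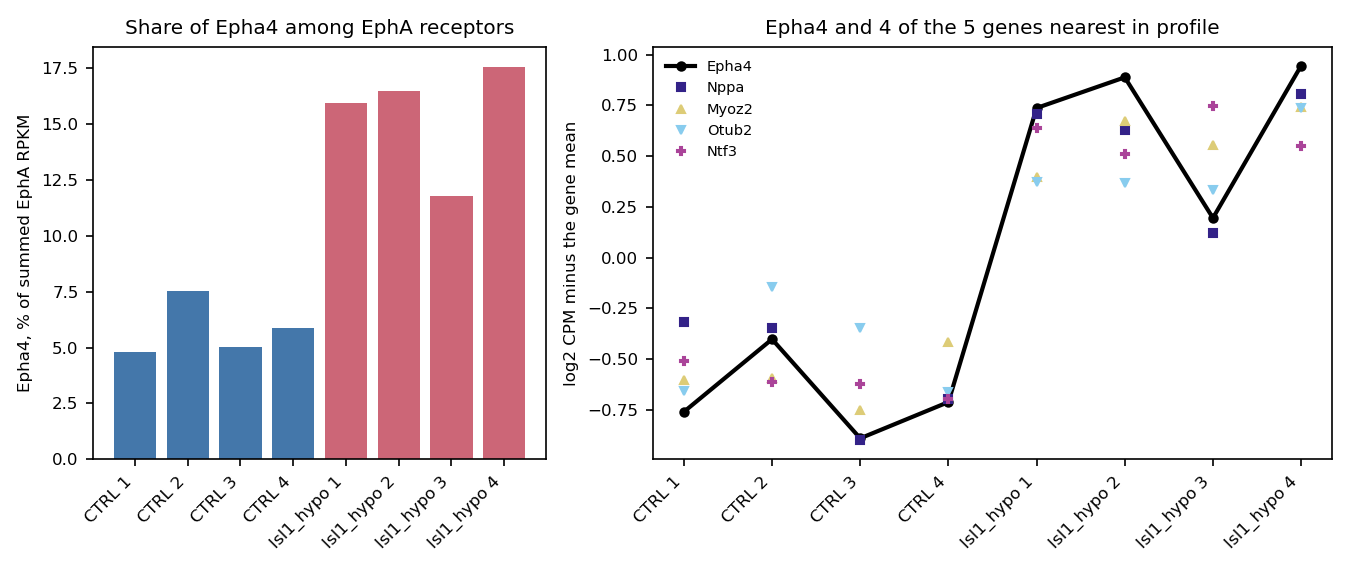
Left, Epha4 as a percentage of the summed RPKM of 9 EphA receptors in each library, from 4.82% to 7.54% in CTRL and 11.8% to 17.6% in Isl1_hypo. Right, log2 CPM minus the mean of each gene for Epha4 (line) and 4 of the 5 genes nearest in profile (symbols), with both Epha4 and Nppa lowest among mutants in Isl1_hypo 3.

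Marker lists of tissues and cell types were read beside these values, and some of them differed between the groups. The summed level of 8 outflow tract and right ventricle markers was 1275 to 1448 CPM in CTRL and 854 to 1060 CPM in Isl1_hypo. These groups did not overlap, with 5 of 8 lower at an unadjusted p under 0.05 and 1 at an adjusted p under 0.05. Hand2 was at 0.01 on the log2 scale, and the other 7 were negative. The authors count Hand2, Mef2c and Tbx20 among the direct targets of Isl1. Lower expression of targets and less tissue therefore cannot be told apart in this sum. For 8 epithelial markers, of which 5 passed the filter, the summed level was 69.1 to 116 CPM and 126 to 315 CPM, again without overlap. Most of that sum was Krt8 (24.7 to 44.7 CPM in CTRL, 46.1 to 92.7 CPM in Isl1_hypo) and Krt18 (42.8 to 73.1 and 77.2 to 139.8 CPM). Krt8, Krt18 and Epcam were higher at an unadjusted p under 0.05, and none at an adjusted p under 0.05. Epcam in Isl1_hypo 2 and 3, at 0.675 and 0.316 CPM, lay inside the CTRL range of 0.128 to 0.983 CPM, while Isl1_hypo 1 and 4 were above it. The highest sum was that of Isl1_hypo 1, where Cldn6 was at 38.5 CPM, Cdh1 at 15.3 CPM, Epcam at 9.83 CPM and Esrp1 at 6.03 CPM, against at most 0.199, 0.311, 1.87 and 0.253 CPM in the other 7 libraries. Without Isl1_hypo 1 the Epha4 log2 fold change was 1.39. The sums of neural crest, mesenchyme and neuron markers overlapped between the groups, at 74.6 to 94.3 and 68.7 to 98.0 CPM, 1594 to 2574 and 965 to 2636 CPM, and 54.0 to 80.3 and 37.9 to 55.6 CPM. Most of the neural crest sum was Ets1, at 57.2 to 62.0 CPM in CTRL and 51.9 to 79.7 CPM in Isl1_hypo. Only 5 of the 8 neural crest markers and 5 of the 8 neuron markers passed the filter. Of the 8 mesenchyme markers 7 had negative log2 fold changes (median -0.39), 2 of them, Sox9 and Twist1, with an unadjusted p under 0.05, and the highest mutant sum was again that of Isl1_hypo 1, the other mutants being at 965 to 1400 CPM. The same p was reached by 1 neural crest marker, Ngfr at -1.08, and 1 neuron marker, Stmn2, and by none of these lists at an adjusted p under 0.05. No marker of these lists was at 0 in every library, although Foxd3 was at 0 in all but Isl1_hypo 2 (0.0375 CPM). The part of any of these lists in the Epha4, Efna1 or Ephb6 values was not tested.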

How the data were processed

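RNA of single OFT/RV samples was sequenced on BGISEQ-500. The authors aligned reads with STAR to mm9 and counted exon reads per RefSeq transcript, ignoring strand. Counts were deposited as whole numbers without normalization. RPKM values were computed by the authors from these counts, and were used here only for levels per length. The deposited columns of the authors' own DESeq2 comparison (mean signal, log2 fold change, standard error, score and p-values) were not used.

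For each of 20701 symbols the transcript with the highest mean count was kept out of 31507. After filterByExpr and TMM scaling, edgeR 4.0.16 compared 13769 genes by its quasi-likelihood test with group as the only term, and Benjamini-Hochberg adjustment of p-values ran over all of them. The biological coefficient of variation was 26.4%. DESeq2 1.42.0, limma 3.58.1, other size factors, filters, transcript choices, covariates and omitted libraries were alternatives. Code was tested on simulated data. Positions came from GENCODE vM1, and promoter sequences from RefSeq (GRCm38.p6), each matched once to mm9.

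The 10 genes and all gene lists were chosen with earlier results of these data known. Genes named were Isl1, all Eph and ephrin genes, signalling genes with an unadjusted p under 0.05 and the 5 genes nearest to Epha4 in profile, of which 1 is not reported here. Values are mean ± SD over embryos.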

Additional observations from a re-analysis of the deposited data

Results flagged for a closer look

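In 6 of 40 groups of 4 libraries examined (2 groups for each of 20 genes), 1 embryo lay farther from the others than Dixon's 95% limit allows, where chance gives about 2. Epha7 was highest in CTRL 1 at 123 CPM, with the other controls at 88.9 to 91.3 CPM. Efna1 was highest in CTRL 2 at 87.2 CPM, with the others at 67.6 to 70.2 CPM. The remaining 4 were low values of Isl1_hypo 3, the library that also stood apart on the first principal component. Epha1 was at 2.84 CPM there (others 8.09 to 8.54 CPM), Epha2 at 9.55 CPM (16.1 to 17.7 CPM), Efna4 at 7.78 CPM (10.6 to 11.2 CPM) and Ephb1 at 0 CPM (1.003 to 1.57 CPM). The cause was not tested.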

How the results depend on the processing

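Genes called at an adjusted p under 0.05 numbered 37, and 319 with DESeq2, 130 with limma-voom and sample quality weights (0.228 for Isl1_hypo 3), 63 with every transcript tested, 100 at an adjusted p under 0.10, 3 with the Y-linked covariate and 0 with the globin covariate. Of the 10 genes, 1 was called, and 0 with either covariate. DESeq2 called 1 of the other family genes and 2 of the signalling genes in place of 0. With 1 library left out, 4 to 48 genes and 0 to 1 of the 10 genes were called, and the number of genes was 8 without CTRL 1, 5 without CTRL 2, 4 without CTRL 3, 12 without Isl1_hypo 2 and 11 without Isl1_hypo 4. Without both Isl1_hypo 1 and 3, chosen after seeing the data, 5 of the 10 genes had no overlap in place of 2, but so had 19.8% of all genes tested in place of 8.50%, since only 2 mutants remained.

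Replicate numbers were shared by the groups, and the deviations of same-numbered libraries correlated at 0.019, -0.021, 0.013 and 0.022. These values show no pairing by number over all genes but cannot exclude it, because the libraries carried no label for litter. With a replicate block, 0 genes were called, and 0 of the 10, with Epha4 at 1.38 (adjusted p = 0.0599) and Isl1 at -2.29 (adjusted p = 0.0722), while the globin covariate gave Isl1 an adjusted p of 0.0618.

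Over all 20 alternatives the log2 fold change ran from -0.42 (without both Isl1_hypo 1 and 3) to 0.12 for Epha3, from -0.14 to 0.50 (globin covariate) for Ephb2 and from 0.06 to 0.31 (without both) for Ephb3. Small differences changed sign, and their cause was not tested. With the globin covariate the log2 fold changes were 0.12 for Epha3, 0.019 for Ephb4, -0.097 for Efna5 and 0.43 for Epha6. With limma-voom and those weights they were 0.066 for Ephb4, -0.097 for Efna5 and 0.17 for Epha6. The Y-linked covariate gave 0.021 for Epha7 and -0.062 for Efna5, and the replicate block -0.014 for Ephb1. Without both Isl1_hypo 1 and 3 they were 0.046 for Ephb4, -0.13 for Efna5 and 0.20 for Epha6. With 1 library left out the ranges were -0.25 to 0.12 for Epha3, -0.12 to 0.064 for Epha7, -0.14 to 0.38 for Ephb2, -0.26 to 0.069 for Ephb4, -0.12 to 0.19 for Efna5, -0.53 to 0.21 for Epha6 and -0.23 to 0.61 for Ephb1. Epha4, Efna1, Ephb3, Efnb1 and Efnb2 kept their sign in all 20 alternatives.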
